A study of Mus musculus with 12 samples.

Results

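Marco, Msr1, Olr1, Scarb1, Stab1, Cd163, Mrc1 and Slco2b1, 7 receptors for particles and modified macromolecules and 1 membrane carrier, were followed in dendritic cells exposed to nanoparticles. The genes were taken by name, through the RefSeq accession of each probe, and carried 11 of the 41174 probes on the array. Msr1 had 3 probes, Stab1 had 2 and every other gene had 1. The filter on dim probes kept all 11 probes and so all 8 genes, of 18404 genes in all.

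The cells were murine bone marrow-derived dendritic cells from female mice aged 6 to 8 weeks, with the strain not given in the sources used here. Marrow was cultured with GM-CSF, a growth factor that turns marrow precursors into dendritic cells, at 20 ng/ml. Cells that did not adhere, or did so loosely, were collected on day 7 as immature dendritic cells. They were then incubated with 300 µg/ml of γ-PGA nanoparticles, which are made of the biodegradable polymer poly(γ-glutamic acid). The 4 groups were labelled 0 h, 6 h, 12 h and 24 h of exposure, with 3 samples each, described as independent experiments. Cultures kept for 6, 12 or 24 h without particles were not analysed here, so time in culture and exposure cannot be told apart.

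Scavenger receptors are surface proteins of phagocytes that bind modified lipoproteins, microbial surfaces, dying cells and uncoated particles, often through negative charge, and carry them inside. Marco and Msr1 belong to the collagen-like class A, Olr1 is lectin-like, and Scarb1 binds high-density lipoprotein. Stab1 and Cd163 are receptors of macrophages, and Mrc1, the mannose receptor, takes up glycoproteins and is a familiar marker of marrow-grown dendritic cells and of macrophages. Slco2b1 encodes an organic anion transporter and is not a scavenger receptor. The comparisons ask how the RNA of each gene at 6, 12 and 24 h stood against the start of the exposure.

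By the arrays' scanner values, Marco and Olr1 rose and Cd163, Mrc1 and Slco2b1 fell at 6 h and at 12 h, and Scarb1 fell at 12 h. Marco rose 176-fold at 6 h and 214-fold at 12 h, and Olr1 rose 5.64-fold and 7.60-fold. Slco2b1 was at least 19.5-fold lower at 6 h and at least 23.6-fold lower at 12 h, and Mrc1 was 3.08-fold and 2.67-fold lower. Called changes passed limma's test at a p under 0.05, adjusted over all genes by the method of Benjamini and Hochberg, with a fitted change of at least 2-fold. Cd163 and Slco2b1 passed the filter through the arrays at 0 and 24 h and were not well above background on any array at 6 or 12 h. For Cd163 the measurable fall was at least 1.57-fold at 6 h and at least 1.90-fold at 12 h. Its call was lost with another background correction, which shrinks the changes of dim probes.

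The deposited files gave each sample in 2 forms, and these sources disagreed at 24 h. Scanner levels are log2 values relative to the 75th percentile of the array's signal, and the authors' value table gives linear ratios to the median of the 3 values at 0 h. Across 18081 genes with values in both, the change at 6 h correlated between the sources with r = 0.73, that at 12 h with 0.54 and that at 24 h with -0.07. The mean scanner level at 24 h correlated with that at 0 h at 0.994, above its correlation with 6 h (0.927) and with 12 h (0.913). The log2 ratios of the table's 24 h columns correlated with those at 12 h at 0.924 and with those at 6 h at 0.769. These correlations are across genes, which are not independent replicates. The 3 arrays labelled 24 h thus lay near the 0 h arrays, and the table columns labelled 24 h near the 12 h columns. Both sources are therefore given for every gene, and which of them holds the 24 h samples was not tested. The median gene of the table lay at 0.14, 0.22 and 0.12 on the log2 scale at 6, 12 and 24 h against 0 h, while scanner medians were -0.06, -0.03 and 0.04. Any scaling between the table's columns is unknown.

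Each array had 50.9% to 59.6% of its spots well above background. The arrays lay on 3 slides, told apart by their barcodes. Slide 1 carried all 0 h arrays plus replicate 1 of 6 h. Slide 2 carried the other 6 h arrays plus replicates 1 and 2 of 12 h, and slide 3 carried replicate 3 of 12 h plus all 24 h arrays. Fits with the slide as a block give within-slide values for neighbouring times. Such values at 6 h against 0 h rest on replicate 1 of 6 h. No slide held 0 h arrays together with 12 h or 24 h arrays, so blocked changes at those times against 0 h are chained through the times between. All 12 dendritic cell markers were well above background at 0 h, and the genes of other cell types are given near the end. In such bulk samples, fewer cells of a type and less RNA per cell cannot be told apart.

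The start regions of 2 genes that rose, Marco and Olr1, and 2 that fell, Mrc1 and Slco2b1, are shown. These genes were called in the same direction at 6 and 12 h in both sources. Cd163 was called lower at these times in both sources too. Its scanner calls were lost with another background correction, which shrinks the changes of dim probes, and its window is not printed. RefSeq sequences of the build GRCm38.p6 were found for 6 of the 8 genes, by symbol, and not for Msr1 and Scarb1. Each window runs from 250 bases before to 50 bases after the annotated start. The Marco window is chr1:120504975-120505274 on the minus strand, Olr1 is chr6:129507116-129507415 on the minus strand, Mrc1 is chr2:14229164-14229463 on the plus strand, and the first of 3 annotated starts of Slco2b1 is chr7:99711291-99711590 on the minus strand. Capitals mark matches on either strand to 5 motifs, which may overlap. They are AP-1 (TGANTCA), NF-kB (3 G, any 5 bases and 2 C), the antioxidant response element core (TGACNNNGC), PU.1 (GAGGAA) and STAT (TTCNNNGAA).
Marco: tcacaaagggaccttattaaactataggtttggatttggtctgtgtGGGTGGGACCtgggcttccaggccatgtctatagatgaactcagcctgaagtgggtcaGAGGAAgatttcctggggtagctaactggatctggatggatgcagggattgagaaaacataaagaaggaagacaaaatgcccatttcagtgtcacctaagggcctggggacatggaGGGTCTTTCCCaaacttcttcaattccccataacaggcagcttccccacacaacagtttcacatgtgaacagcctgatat
Olr1: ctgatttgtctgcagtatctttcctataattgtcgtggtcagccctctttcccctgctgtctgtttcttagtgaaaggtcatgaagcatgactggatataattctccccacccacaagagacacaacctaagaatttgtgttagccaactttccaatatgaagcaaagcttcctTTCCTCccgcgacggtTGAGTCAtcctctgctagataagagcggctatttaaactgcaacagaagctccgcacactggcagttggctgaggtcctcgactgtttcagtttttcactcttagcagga
Mrc1: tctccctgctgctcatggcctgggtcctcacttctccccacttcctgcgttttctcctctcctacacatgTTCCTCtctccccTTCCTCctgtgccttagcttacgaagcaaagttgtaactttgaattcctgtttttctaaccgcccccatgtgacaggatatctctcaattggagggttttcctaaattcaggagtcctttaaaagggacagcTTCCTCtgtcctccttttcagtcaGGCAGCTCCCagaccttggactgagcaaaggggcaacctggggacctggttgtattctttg
Slco2b1: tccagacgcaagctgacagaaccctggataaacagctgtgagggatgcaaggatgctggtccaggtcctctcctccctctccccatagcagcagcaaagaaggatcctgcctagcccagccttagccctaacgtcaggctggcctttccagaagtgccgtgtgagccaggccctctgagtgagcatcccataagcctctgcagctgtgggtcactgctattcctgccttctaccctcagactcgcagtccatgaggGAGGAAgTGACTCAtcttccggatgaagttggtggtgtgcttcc
Marco held 3 matches to the NF-kB letters, 2 of them overlapping, and 1 to PU.1. Olr1 held 1 match to AP-1 and 1 to PU.1, and the printed Slco2b1 window likewise held 1 of each. Mrc1 held 3 matches to PU.1 and 1 to NF-kB. Of 32851 promoter windows of the same length, 50.8% held the NF-kB letters, 28.3% PU.1, 12.4% the antioxidant core, 8.3% STAT and 7.81% AP-1. Of the windows not printed, that of Stab1 held 1 match to PU.1 and that of Cd163 held 2 to NF-kB. The second annotated start of Slco2b1 held 4 matches to NF-kB, 1 to PU.1 and 1 to STAT, and the third held 1 to each of these 3 motifs. A match describes letters in the window and not a bound site.

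**Figure D1:**
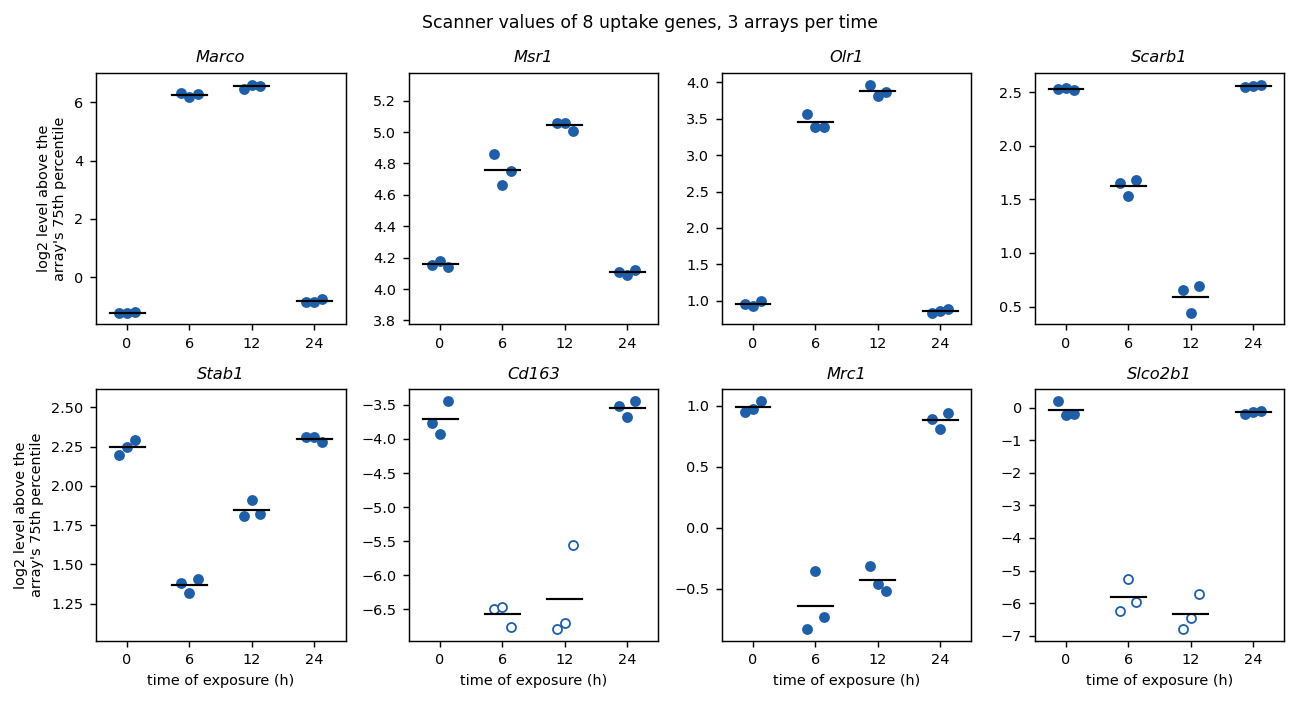
Scanner level of 8 genes by time of exposure in hours, as log2 above the array's 75th percentile, with a different vertical range in each panel. Each point is 1 of the 3 arrays per time, each line is their mean, and open points were not well above background; Marco lies between 6.17 and 6.60 at 6 and 12 h and between -1.22 and -0.75 at 0 and 24 h.

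Marco, the macrophage receptor with collagenous structure, binds unopsonised bacteria and environmental particles. Its scanner level was -1.21, -1.22 and -1.20 at 0 h, 6.33, 6.17 and 6.27 at 6 h, 6.44, 6.60 and 6.57 at 12 h, and -0.83, -0.84 and -0.75 at 24 h. All 6 arrays at 6 and 12 h stood far above the 6 arrays at 0 and 24 h, with no overlap. The mean was 6.25 ± 0.079 at 6 h against -1.21 ± 0.007 at 0 h (SD, n = 3 each), a log2 change of 7.46 ± 0.056 (SE, adjusted p = 3.03e-13). At 12 h the change was 7.74 ± 0.056 (SE, adjusted p = 2.41e-13). For 24 h against 0 h it was 0.40 ± 0.056 (SE, adjusted p = 0.0112), a 1.32-fold difference that falls short of 2-fold and had an adjusted p of 0.23 with the slide as a block.

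The authors' deposited table gave Marco ratios of 1.05, 1.00 and 0.978 at 0 h, 102, 101 and 93.2 at 6 h, 202, 202 and 179 at 12 h, and 188, 180 and 192 at 24 h. All 9 values after the start were far above those at 0 h. Fitted the same way, the changes were 97.9-fold at 6 h, 192-fold at 12 h and 185-fold at 24 h (adjusted p = 8.55e-13, 3.99e-13 and 4.89e-13). The 2 sources thus put the 24 h samples at opposite ends of the range for this gene. Marco at 12 h lay 0.97 ± 0.063 above 6 h in the table and 0.28 ± 0.056 above it on the arrays (log2, SE), both under 2-fold. Without the table's 12 h replicate 3 the difference was 1.03, which passed 2-fold.

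Msr1 encodes the class A scavenger receptor that takes up acetylated and oxidised low-density lipoprotein. The probe with the highest mean stood at 4.15, 4.18 and 4.14 at 0 h, 4.86, 4.66 and 4.75 at 6 h, 5.06, 5.06 and 5.01 at 12 h, and 4.11, 4.09 and 4.12 at 24 h. Arrays at 6 h and 12 h were above every array at 0 h, and arrays at 24 h were slightly below them. The scanner changes of 0.60 ± 0.049 at 6 h and 0.89 ± 0.049 at 12 h (SE, adjusted p = 1.55e-06 and 6.05e-08) were 1.51-fold and 1.85-fold, under the 2-fold minimum. With the slide as a block the 12 h change was 1.06, past that minimum.

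The table's ratios for Msr1 were 1.00, 0.951 and 1.06 at 0 h, 2.49, 2.11 and 2.12 at 6 h, 2.16, 2.19 and 2.06 at 12 h, and 2.82, 2.78 and 2.82 at 24 h. By these, Msr1 rose 2.23-fold, 2.13-fold and 2.80-fold at 6, 12 and 24 h (adjusted p = 1.35e-07, 1.91e-07 and 1.84e-08). Its other 2 probes changed by 0.50 and 0.36 at 6 h and by 0.73 and 0.43 at 12 h on the scanner's log2 scale. In the table they changed by 1.08 and 1.2 at 6 h and by 1.01 and 1.06 at 12 h. All 3 probes lay higher at 6 and 12 h than at 0 h in both sources, with table changes above the scanner's at every time.

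Olr1 encodes the lectin-like receptor for oxidised low-density lipoprotein, also known as LOX-1. Scanner levels were 0.95, 0.92 and 0.99 at 0 h, 3.57, 3.39 and 3.39 at 6 h, 3.97, 3.81 and 3.87 at 12 h, and 0.83, 0.86 and 0.89 at 24 h. The 6 arrays at 6 and 12 h stood above all others, and those at 12 h above those at 6 h. Olr1 rose by 2.50 ± 0.059 at 6 h and 2.93 ± 0.059 at 12 h (log2, SE, adjusted p = 1.53e-10 and 3.71e-11). At 24 h against 0 h the difference was -0.09 ± 0.059 (SE, adjusted p = 0.422).

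Table ratios of Olr1 were 0.924, 1.01 and 1.00 at 0 h, 12.7, 11.1 and 10.9 at 6 h, 9.95, 10.0 and 9.22 at 12 h, and 5.21, 4.98 and 5.06 at 24 h. All 3 later times were above 0 h, with 6 h highest and 24 h lowest of them, and no overlap between times. The fitted rises were 11.8-fold, 9.95-fold and 5.20-fold (adjusted p = 4.22e-11, 5.31e-11 and 5.05e-10). The order of 6 and 12 h differed between the sources. At 12 h against 6 h Olr1 differed by 0.43 ± 0.059 on the arrays and by -0.25 ± 0.068 in the table (log2, SE, adjusted p = 0.000187 and 0.0126), under 2-fold in both.

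**Figure D2:**
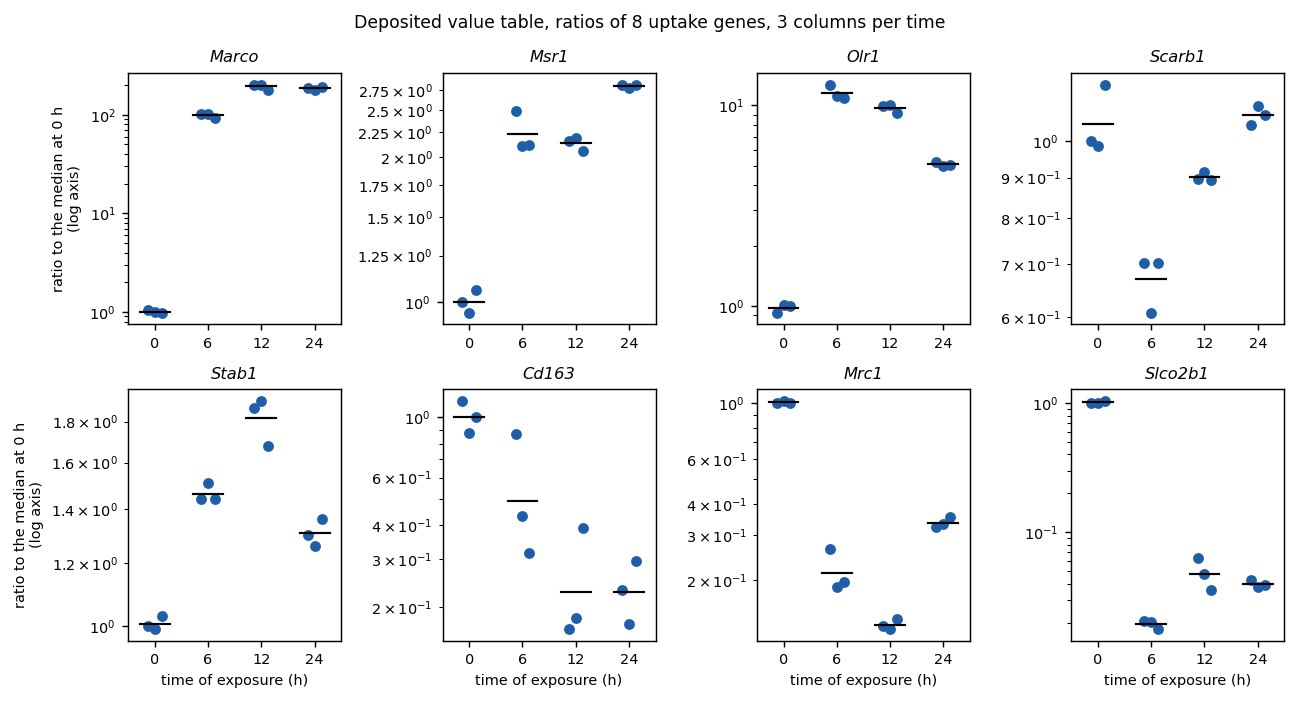
Ratio to the median at 0 h in the authors' deposited table, on log axes that differ between panels, by time of exposure in hours. Each point is 1 of 3 columns per time and each line their geometric mean; Marco, Msr1 and Olr1 lie above 1 and Cd163, Mrc1 and Slco2b1 below 1 at 24 h, where Slco2b1 lies between 0.0374 and 0.0426.

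Scarb1 encodes the class B receptor through which cells exchange cholesterol with high-density lipoprotein. Its scanner levels were 2.53, 2.54 and 2.52 at 0 h, 1.65, 1.53 and 1.68 at 6 h, 0.65, 0.44 and 0.69 at 12 h, and 2.55, 2.56 and 2.57 at 24 h. Levels at 12 h were the lowest and those at 6 h lay between them and the other times. The mean was 0.59 ± 0.132 at 12 h against 2.53 ± 0.010 at 0 h (SD, n = 3 each). Scarb1 fell by 1.94 ± 0.064 on the log2 scale at 12 h (SE, adjusted p = 1.13e-09). At 6 h the change was -0.91 ± 0.064 (SE, adjusted p = 4.81e-07), which is 1.88-fold. Between 12 h and 6 h it was -1.03 ± 0.064 (SE, adjusted p = 6.79e-07), called, but -0.95 and under 2-fold without 12 h replicate 2.

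For Scarb1 the table had ratios of 1.00, 0.987 and 1.18 at 0 h, 0.703, 0.607 and 0.702 at 6 h, 0.896, 0.915 and 0.895 at 12 h, and 1.05, 1.11 and 1.08 at 24 h. Here 6 h was lowest and the 24 h values fell within the range at 0 h. The log2 changes were -0.65 ± 0.080 at 6 h, -0.22 ± 0.080 at 12 h and 0.04 ± 0.080 at 24 h (SE, adjusted p = 3.46e-05, 0.0274 and 0.683), none of them 2-fold. The 12 h fall in the scanner values was therefore not matched in size by the table.

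Stab1 encodes stabilin-1, a large receptor of macrophages and of endothelium that clears acetylated lipoprotein. Of its 2 probes, that with the higher mean read 2.20, 2.25 and 2.29 at 0 h, 1.38, 1.32 and 1.41 at 6 h, 1.81, 1.91 and 1.82 at 12 h, and 2.31, 2.31 and 2.28 at 24 h. Its ratios in the table were 1.00, 0.992 and 1.03 at 0 h, 1.44, 1.51 and 1.44 at 6 h, 1.87, 1.91 and 1.68 at 12 h, and 1.30, 1.26 and 1.36 at 24 h. The 6 h and 12 h arrays were below all 0 h arrays, whereas the 6 h and 12 h columns were above all 0 h columns. The log2 changes were -0.88 ± 0.042 at 6 h and -0.40 ± 0.042 at 12 h by the scanner, and 0.54 ± 0.058 and 0.86 ± 0.058 by the table (SE). The adjusted p were 2.40e-08 and 9.23e-06 for the scanner and 1.22e-05 and 3.10e-07 for the table. None of these reached 2-fold, and no direction is drawn for Stab1.

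The other Stab1 probe, A_52_P380399, changed by -0.37 at 6 h and 0.02 at 12 h by the scanner, against 1.38 and 1.42 by the table. Both probes thus lay higher in the table than on the arrays at the same time.

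**Figure D3:**
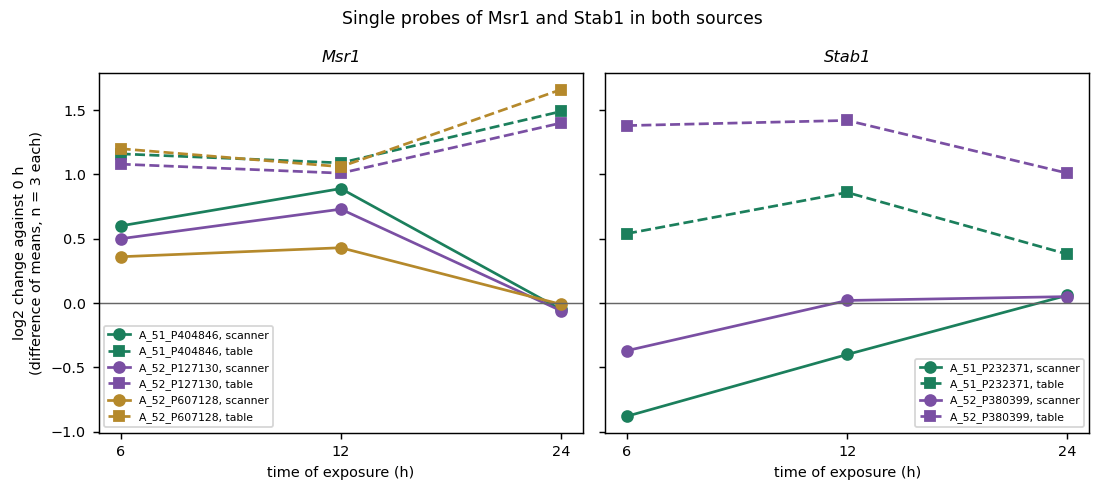
Log2 change against 0 h at 6, 12 and 24 h for each probe of Msr1 and of Stab1, as differences of means of 3 samples each. Circles with full lines are scanner values and squares with dashed lines the value table; the Stab1 probe A_51_P232371 lies at -0.88 by the scanner and 0.54 by the table at 6 h.

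Cd163 encodes the receptor for haemoglobin bound to haptoglobin. Its scanner levels were -3.76, -3.92 and -3.44 at 0 h, -6.50, -6.46 and -6.76 at 6 h, -6.79, -6.70 and -5.55 at 12 h, and -3.52, -3.68 and -3.44 at 24 h. None of the 6 arrays at 6 and 12 h was well above background, and all 6 at 0 and 24 h were. The fall is therefore a bound, at least 1.57-fold lower at 6 h and at least 1.90-fold lower at 12 h. The fitted log2 changes of -2.87 and -2.64 (limma, adjusted p = 6.94e-06 and 1.18e-05) passed 2-fold, and the bounds do not reach it. Those p rest on the dim signals and do not test the bounds. Such a bound sets the mean at 0 h against the lowest signal called well above background on each dim array, or the probe's own signal where that is higher. With a normexp background and its offset of 50 the log2 changes were -0.57 at 6 h (adjusted p = 0.00827) and -0.35 at 12 h (adjusted p = 0.082). Neither was called. The added offset shrinks the changes of dim probes, so the lost calls do not show that Cd163 stayed level.

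In the table Cd163 had ratios of 1.15, 0.874 and 1.00 at 0 h, 0.867, 0.433 and 0.316 at 6 h, 0.166, 0.182 and 0.392 at 12 h, and 0.231, 0.173 and 0.296 at 24 h. The 6 h columns spread widely, and the highest of them lay just under the lowest at 0 h. The log2 change of -1.03 ± 0.41 at 6 h (SE, adjusted p = 0.0441) was lost when any 0 h column was left out (adjusted p = 0.112, 0.0629 and 0.0878 without replicates 1, 2 and 3). It was also lost without 6 h replicate 2 (0.108) or 3 (0.162), 12 h replicate 2 (0.0509) or 24 h replicate 1 (0.0573). Without the 24 h columns altogether the adjusted p was 0.0602. At 12 h and at 24 h the fall was 4.39-fold (adjusted p = 0.000808 and 0.000854). No array at 6 or 12 h was well above background for Cd163. Whether the table's ratios at those times rest on measurable signal was not tested.

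Mrc1, the mannose receptor, read 0.95, 0.97 and 1.04 at 0 h, -0.83, -0.35 and -0.73 at 6 h, -0.31, -0.46 and -0.52 at 12 h, and 0.89, 0.81 and 0.94 at 24 h. Arrays at 6 and 12 h overlapped each other and lay below every array at 0 and 24 h. Mrc1 fell by 1.62 ± 0.11 at 6 h and 1.42 ± 0.11 at 12 h (log2, SE, adjusted p = 3.49e-07 and 8.74e-07). The 24 h difference was -0.11 ± 0.11 (SE, adjusted p = 0.652). Table ratios were 0.998, 1.02 and 1.00 at 0 h, 0.266, 0.187 and 0.197 at 6 h, 0.132, 0.128 and 0.140 at 12 h, and 0.323, 0.334 and 0.354 at 24 h. All 9 later values were below those at 0 h, and 12 h was lowest. The falls were 4.71-fold, 7.57-fold and 2.99-fold (adjusted p = 3.90e-08, 4.55e-09 and 5.61e-07). The table's 24 h level was 2.53-fold above that at 12 h (adjusted p = 1.12e-05).

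Markers of macrophages, cells that carry Mrc1, Cd163 and Stab1 too, were read beside these falls. Of 10 macrophage markers with a probe, 1 rose and 6 fell at 6 h and 3 rose and 4 fell at 12 h by the scanner. Of all genes, 10.2% rose and 15.9% fell at 6 h and 13.7% rose and 16.9% fell at 12 h by the scanner. The table had 1 rise and 2 falls at 6 h, 1 rise and 5 falls at 12 h, and 1 rise and 4 falls at 24 h, beside 13.3%, 15.7% and 13.3% of all genes that rose and 11.8%, 12.1% and 13.0% that fell. Their summed level, as a multiple of the 75th percentile, was 289 to 290 at 0 h, 213 to 237 at 6 h, 357 to 381 at 12 h and 288 to 294 at 24 h. None of the 10 was below background on all arrays of a time, and the 3 C1q genes were among the scanner falls at 6 and 12 h. The part of these markers in the falls of Mrc1 and Cd163 was not tested.

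Slco2b1 encodes a sodium-independent carrier of steroid sulphates and other organic anions. Its levels were 0.21, -0.23 and -0.20 at 0 h, -6.24, -5.25 and -5.96 at 6 h, -6.80, -6.45 and -5.73 at 12 h, and -0.18, -0.12 and -0.11 at 24 h. It was well above background on all 6 arrays at 0 and 24 h and on none of the 6 at 6 and 12 h, and those groups did not overlap. The falls were at least 19.5-fold at 6 h and at least 23.6-fold at 12 h. limma's adjusted p of 3.95e-08 and 1.67e-08 belong to the fitted log2 changes of -5.74 and -6.25. Those changes use signals not well above background, so the p do not test the bounds. A normexp background shrank the log2 changes to -2.42 and -2.25, still called. At 24 h the scanner difference was -0.07 ± 0.29 (SE, adjusted p = 0.939).

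Ratios of Slco2b1 in the table were 1.00, 0.994 and 1.04 at 0 h, 0.0207, 0.0202 and 0.0178 at 6 h, 0.0631, 0.0474 and 0.0360 at 12 h, and 0.0426, 0.0374 and 0.0392 at 24 h. All 9 later values were at or under 0.0631. The falls were 51.8-fold, 21.2-fold and 25.5-fold at 6, 12 and 24 h (adjusted p = 6.23e-10, 3.31e-09 and 2.15e-09). Slco2b1 was 2.44-fold higher at 12 h than at 6 h by the table (adjusted p = 0.000131). No array of either time was well above background, so the scanner could not measure this step. The table's ratios at these times ran from 0.0178 to 0.0631, where the lowest value of the whole table is 0.01. Whether they rest on measurable signal was not tested. By the table Slco2b1 had the largest fall of the 8 genes at 6, 12 and 24 h, and Marco the largest rise.

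**Figure D4:**
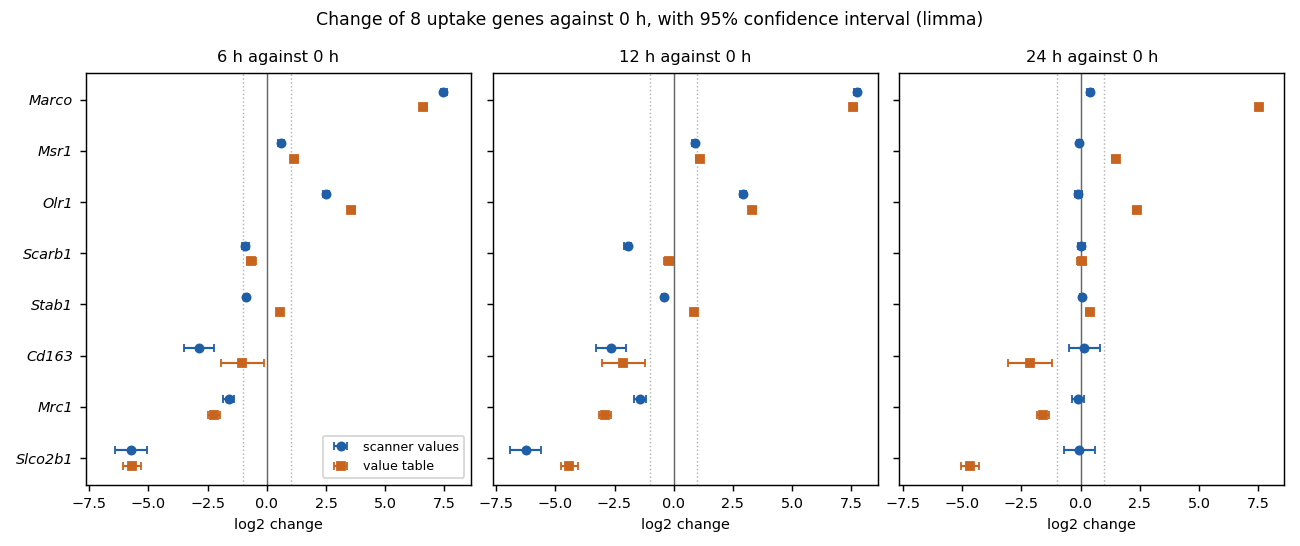
Log2 change against 0 h at 6, 12 and 24 h for the 8 genes, with 95% confidence intervals from limma; circles are scanner values, squares the value table, and dotted lines mark 2-fold. Scanner changes of Cd163 and Slco2b1 at 6 and 12 h rest on signals not well above background; at 24 h Marco lies at 0.40 by the scanner and 7.53 by the table.

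Counted together by the scanner values, 5 of the 8 genes were called at 6 h against 0 h, where 26.1% of all genes were called. They were 2 rises (10.2% of all genes rose) and 3 falls (15.9%). At 12 h against 0 h 6 genes were called, 2 up and 4 down, with 30.6% of all genes called, 13.7% up and 16.9% down. At 24 h against 0 h limma called 0 of 8, and Marco alone was under an adjusted and an unadjusted p of 0.05, with 0.837% of all genes called. The table called 6 genes at each time against 0 h, 3 up (Marco, Msr1 and Olr1) and 3 down (Cd163, Mrc1 and Slco2b1), beside 25.0%, 27.8% and 26.3% of all genes at 6, 12 and 24 h. Of all genes, 13.3%, 15.7% and 13.3% were up and 11.8%, 12.1% and 13.0% down at those times in the table.

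With the slide as a block, Marco changed by 7.54, Olr1 by 2.61 and Mrc1 by -1.82 at 6 h and by 7.83, 3.11 and -1.66 at 12 h, and no call among the 8 genes at 6 h differed.

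Between neighbouring times the scanner called 1 gene at 12 h against 6 h, Scarb1, which fell, with 6.99% of all genes called (4.88% up, 2.1% down). The scanner change of Scarb1 without 12 h replicate 2, given above, was under 2-fold. The table called 2, Cd163 down and Slco2b1 up, with 5.8% called (3.07% up, 2.73% down). Cd163's change of -1.11 there (adjusted p = 0.0471) was lost when any column at 0 h or 24 h, or replicate 1 or 2 at 6 h or at 12 h, was left out (adjusted p up to 0.154). At 24 h against 12 h the scanner called 6 genes with 31.0% of all genes called. Scarb1, Cd163, Mrc1 and Slco2b1 were up (18.1% of all genes) and Marco and Olr1 down (12.9%). Cd163 and Slco2b1 were not well above background on any 12 h array. Their rises are therefore bounds, at least 2.13-fold and at least 22.6-fold. With normexp the log2 change of Cd163 was 0.24 (limma, adjusted p = 0.205) and not called, and that of Slco2b1 was 2.34. The table called Mrc1 alone, up, with 4.57% called (1.4% up, 3.17% down).

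Over the whole time course an F-test together with the 2-fold minimum called 6 of 8 genes in each source, beside 36.1% of all genes by the scanner and 36.9% by the table. Msr1 and Stab1 missed the minimum in the scanner values, and Scarb1 and Stab1 missed it in the table. The median log2 change of the 8 genes was -0.89 at 6 h and -0.91 at 12 h by the scanner (-0.77 and -0.67 with the genes below background at their bounds), against medians of -0.06 and -0.03 over all genes. In the table it was -0.06 and 0.32, against 0.14 and 0.22. These medians mix genes that moved in opposite directions.

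Each gene's closest companions were sought among 4143 named genes called over the time course, by the lower of 2 Pearson correlations, over 12 arrays and over 12 table columns. The arrays and columns carry the same sample labels, and the samples of a time lie close together, so each value describes the steps between times. Ccl5, which encodes a chemokine, followed Marco most closely (0.998), then Slc11a2, an iron transporter gene (0.996). Nearest to Olr1 were Tnfrsf1b, a TNF receptor gene (0.998), Nfkb2, an NF-kB subunit gene (0.997), and Spic, a transcription factor gene (0.997). Fabp4, a fatty acid-binding protein gene, was nearest to Msr1 (0.987), and Kazald1 (0.982), Mef2c and Hfe (0.98 each) to Mrc1. Tfdp2 (0.994) and Pold1 (0.992), which act in cell cycle control and DNA replication, were nearest to Slco2b1. Cd163 and Scarb1 had looser companions, Cpq (0.931) and Poglut2 (0.963), and Stab1 had Vhl (0.92).

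The calls of the further lists stand beside 26.1% of all genes at 6 h and 30.6% at 12 h by the scanner and 25.0% and 27.8% by the table, and their medians beside all-gene medians of -0.06 and -0.03 by the scanner and 0.14 and 0.22 by the table. Of the other scavenger receptors, 11 of 15 listed genes were tested. By the scanner 1 rose and 4 fell at 6 h, and 2 rose and 3 fell at 12 h, with a median log2 change of -0.13 and -0.11. The table had 5 rises and 1 fall at both times, with medians of 0.68 and 0.91. Cxcl16, a membrane-bound chemokine that also binds oxidised lipoprotein, rose in both sources. Its scanner rise was 2.95-fold at 6 h and 3.79-fold at 12 h, and the table's was 11.1-fold and 13.2-fold. Scarf1, a receptor of the class F, rose at 12 h in both, 2.27-fold and 4.72-fold. Cd5l, a secreted macrophage protein with scavenger receptor domains, was 2.93-fold lower at 6 h and 10.3-fold lower at 12 h by the scanner but 10.6-fold and 3.1-fold higher by the table. Colec12, a collectin receptor, likewise had scanner falls of 2.16-fold and 4.57-fold, while its table values rose 5.26-fold and 6.25-fold. Ager, the receptor for advanced glycation products, fell by the scanner at 6 h (adjusted p = 0.000628), where no bound above 1-fold could be set because it was not well above background, and was 3.06-fold lower by the table.

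The uptake and endosome machinery, 25 of 27 genes tested, held 3 rises and 1 fall at 6 h and again at 12 h by the scanner, with medians of 0.14 and 0.27. The table had 4 rises and 1 fall at each of these times, with medians of 0.41 and 0.51. Cav1, which encodes the coat protein of caveolae, rose 58.8-fold at 6 h and 53.1-fold at 12 h on the arrays, and 91.8-fold and 108-fold in the table's columns. Ap2b1, a subunit of the clathrin adaptor, rose 2.75-fold at 6 h and 3.22-fold at 12 h on the arrays and 2.18-fold at 6 h in the table, where its 12 h ratio of 1.81 was under the minimum. Eea1, an early endosome tether, rose 2.27-fold at 6 h and 2.31-fold at 12 h on the arrays and 2.24-fold at 6 h in the table. Pak1, a kinase of macropinocytosis, had scanner falls of 4.55-fold and 3.95-fold at 6 and 12 h and table falls of 3.16-fold and 3.60-fold.

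Of the other organic anion carriers, 4 of 14 were tested. Slco4a1 rose 12.2-fold and 7.03-fold and Slco3a1 4.83-fold and 7.55-fold by the scanner at 6 and 12 h, the opposite direction to Slco2b1, and none fell. By the table none of the 4 was called at 6 or 12 h. There Slco4a1 was 1.40-fold and 1.94-fold higher (adjusted p = 0.000313 and 1.67e-06). Slco3a1 was 1.42-fold higher at 6 h but 1.30-fold lower at 12 h (adjusted p = 4.04e-05 and 0.000309), against its scanner rise. At 24 h the table had 2 rises, Slco1a4 and Slco4a1, and 1 fall, Slco3a1, beside 13.3% of all genes up and 13.0% down.

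Genes that handle lipoprotein and haem after uptake numbered 12 tested of 14. The scanner had 3 rises and 2 falls at 6 h and 2 of each at 12 h, with medians of -0.41 and -0.31, while the table had 4 rises at 6 h and 6 at 12 h with no fall and medians of 0.54 and 0.89. Hmox1, haem oxygenase, which degrades the haem that Cd163 brings in, had scanner rises of 5.48-fold and 3.97-fold at 6 and 12 h and table rises of 25.9-fold and 19.3-fold. Blvrb, a biliverdin reductase gene, rose 2.45-fold by the scanner at 6 h and 7.93-fold by the table. Abcg1, a cholesterol exporter, was 5.17-fold lower at 6 h by the scanner, and 1.78-fold lower and not called by the table. Nceh1, a cholesterol ester hydrolase, and Lipa, the lysosomal acid lipase, went opposite ways at 12 h. On the arrays Nceh1 was 7.68-fold and Lipa 3.25-fold lower, while in the table Nceh1 was 2.36-fold and Lipa 3.81-fold higher.

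**Figure D5:**
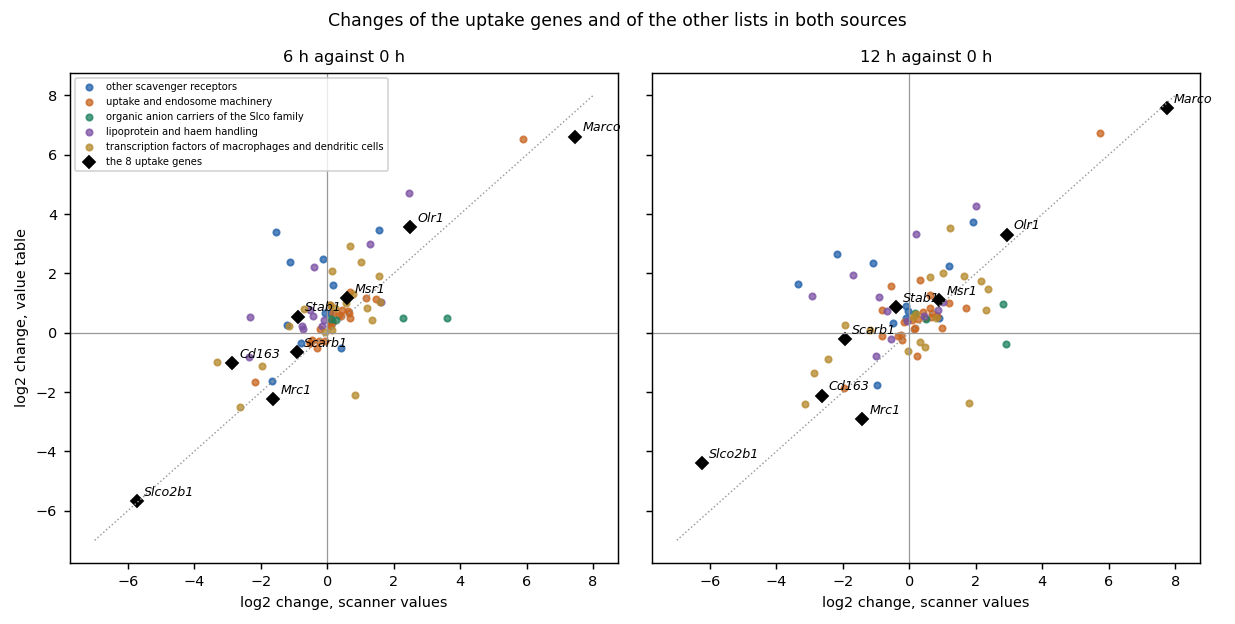
Log2 change against 0 h at 6 h and at 12 h for the 8 genes (black diamonds, named) and the members of 5 further gene lists (coloured points), scanner values on the horizontal axis and the value table on the vertical. Points off the dotted line of equality differ between the sources; Marco lies at 7.46 and 6.61 at 6 h, and Stab1 at -0.88 and 0.54.

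Marker genes were read beside the label of the cells, which detection alone cannot settle. All 10 macrophage markers with a probe were well above background at 0 and 24 h. All 12 dendritic cell markers, among them Itgax and Cd74, were well above background on every array at 0 and 24 h. At 6 and 12 h 10 of them were, and Cd209a was not on any array there. Their summed level was 481 to 503 at 0 h, 527 to 599 at 6 h, 654 to 696 at 12 h and 476 to 486 at 24 h, in multiples of the 75th percentile. Neutrophil markers were also present, with all 9 measured well above background at every time and summed levels of 298 to 306 at 0 h, 285 to 329 at 6 h, 339 to 387 at 12 h and 299 to 307 at 24 h. Of these 9, 2 fell at 6 h by the scanner, which called no others at 6, 12 or 24 h. The table had 4 falls at 6 h, 6 at 12 h and 9 at 24 h, and no rise, beside 11.8%, 12.1% and 13.0% of all genes that fell by the table and 15.9% by the scanner at 6 h. Mast cell, B cell and T and NK cell markers summed to at most 3.54, 1.55 and 1.18 on any array. Of 5 T and NK markers tested, 3 fell at 6 h and 4 at 12 h by the scanner. Cd3g, Cd2 and Klrb1c were not well above background on any array at those times. The table had 1 rise and 3 falls at 6 h, 3 falls at 12 h and 1 at 24 h. All 4 mast cell markers tested fell at 24 h by the table. These calls stand beside the shares of all genes given above. Endothelial markers summed to 0.786 to 0.93 at 0 h, 2.65 to 2.99 at 6 h, 8.21 to 8.71 at 12 h and 0.805 to 0.868 at 24 h, with Tek and Lyve1 not above background on any array. Of 3 endothelial markers tested, Kdr rose in both sources at 6 and 12 h. Pecam1 rose at 12 h by the scanner and fell at 12 and 24 h by the table. The same shares of all genes apply to these calls. Fibroblast markers summed to at most 0.693. The part of these markers in the changes of the 8 genes was not tested.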

How the data were processed

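Cy3-labelled cRNA of 12 samples was hybridised to 1-colour Agilent arrays. Per the file headers and the submitters' processing notes, intensities came from Agilent Feature Extraction 9.1.3.1 and the deposited processed signal is on a linear scale. The value table the authors deposited holds ratios to the median at 0 h, with a lowest value of 0.01. The files name no genome build.

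Outlier spots were left out, log2 intensities were set against each array's 75th percentile of non-control spots, and spots of a probe were averaged. Probes well above background on every array of at least 1 group were kept, and each gene took its kept probe of highest mean level (18404 genes, 11577 with a symbol). Symbols came from RefSeq accessions. Unnamed probes counted under the array's own name. limma 3.58.1 in R 4.3.3 fitted 4 group means to the 12 arrays, with two-sided p and Benjamini-Hochberg adjustment over all genes. The log2 of the table's ratios was fitted the same way. The script was tested on simulated data. The number of arrays limits the precision. Promoter windows are 300 bases.

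All 8 genes are named with every probe. From each further list, at most 3 rises and 3 falls, the largest at 6 or 12 h by the scanner, were named, with others only to complete a small count. Some members of these lists are not reported here. The genes, lists and tests were chosen with earlier results of these data known. Alternatives were another background (normexp on the median signals, offset 50), normalization, filters, probe summary, slide or replicate block, and leaving out each sample.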

Additional observations from a re-analysis of the deposited data

How the results depend on the processing

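The sources disagree most. With the value table in place of the scanner values, the genes changed at 24 h against 0 h numbered 6 in place of 0, at 12 h against 6 h 2 in place of 1, and at 24 h against 12 h 1 in place of 6, and the further lists held 30 changed members at 24 h in place of 1. Direction turned for Stab1 at 6 h (0.54) and 12 h (0.86), for Msr1 (1.49), Olr1 (2.38) and Cd163 (-2.13) at 24 h against 0 h, and at 12 h against 6 h for Msr1 (-0.06), Olr1 (-0.25), Scarb1 (0.43), Cd163 (-1.11), Mrc1 (-0.68) and Slco2b1 (1.29). At 24 h against 12 h it turned for Msr1 (0.39), Stab1 (-0.48), Cd163 (-0.0009) and Slco2b1 (-0.26).

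Among other settings, signs turned only for values not called by the scanner as reported. For 24 h against 0 h these were, with normexp, Msr1 (0.09), Olr1 (0.00058), Cd163 (-0.1) and Slco2b1 (0.09), with quantile normalization Cd163 (-0.0034), with the median in place of the percentile Scarb1 (-0.06) and Stab1 (-0.04), and with the slide as a block Msr1 (0.16), Olr1 (0.1), Scarb1 (-0.05) and Cd163 (-0.92). For 12 h against 6 h they were Slco2b1 with normexp (0.17) and Cd163 with the slide as a block (-0.13). Leaving out 1 sample turned Slco2b1 at 24 h against 0 h (-0.14 to 0.08) and Cd163 at 12 h against 6 h (-0.17 to 0.45), and in the table Scarb1 at 24 h against 0 h (-0.01 to 0.12), Msr1 at 12 h against 6 h (-0.11 to 0.01) and Cd163 at 24 h against 12 h (-0.23 to 0.39).

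The cause was not tested for any of these. The filter for all 12 arrays left 3 called genes at 6 h, since it drops Cd163 and Slco2b1. With no fold minimum 8 genes passed at 6 h, 1 at 24 h against 0 h and 5 at 12 h against 6 h, and with the table's values 7 at 12 h against 6 h and 5 at 24 h against 12 h. The slide as a block gave 2 at 12 h against 6 h, the added one being Slco2b1, not well above background at either time, and leaving out 1 sample gave 0 to 1. In the table that count was 1 with the replicate block and without the 24 h columns, and 1 to 3 without 1 sample. The further lists' single call at 24 h was 0 with normexp, with no filter, with the filter for all arrays, with the slide as a block and with the replicate block, and 0 to 1 without 1 sample. Normexp called 2577, 3064, 8, 577 and 3155 of all genes for 6, 12 and 24 h against 0 h, 12 h against 6 h and 24 h against 12 h, in place of 4798, 5629, 154, 1286 and 5711. For 24 h against 0 h the count of all genes ranged from 8 to 393 over the scanner settings. The filter for all 12 arrays gave 806 at 12 h against 6 h.

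Same-numbered samples correlated at -0.09 to 0.16 on the arrays and -0.08 to 0.23 in the table, and 5 and 4 of 12 samples were closest to their own number, so the numbers are not taken as pairs. The replicate block changed no scanner call of the 8 genes, and in the table it ended those of Cd163 at 6 h (adjusted p = 0.0528) and at 12 h against 6 h (0.0587). Signals not well above background limit Cd163 and Slco2b1 at 6 and 12 h.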

Other observations

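Transcription factors of macrophages and dendritic cells, 19 genes and all tested, moved in both directions. By the scanner 4 rose and 4 fell at 6 h and 7 rose and 5 fell at 12 h, with median log2 changes of 0.24 and 0.48. Of all genes, 26.1% were called at 6 h and 30.6% at 12 h by the scanner, with medians of -0.06 and -0.03. The table had 6 rises and 3 falls at each of the 3 times, with medians of 0.83, 0.49 and 0.18 at 6, 12 and 24 h, beside 25.0%, 27.8% and 26.3% of all genes called and all-gene medians of 0.14, 0.22 and 0.12. Maf, a factor of macrophages, rose 5.22-fold at 12 h on the arrays and 2.78-fold in the table, and Irf8, a factor of dendritic cells, rose 4.46-fold and 3.33-fold. Stat3, which carries cytokine signals, rose 4.95-fold at 12 h on the arrays and was 1.69-fold higher and not called by the table. Klf4 fell 8.73-fold and 5.25-fold at 12 h, and Pparg, a lipid-sensing receptor, fell 7.27-fold and 2.59-fold. Irf4, named here after its values were seen, rose 3.45-fold at 12 h by the scanner and fell 5.20-fold by the table.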
